A study of Homo sapiens with 5 samples.

Results

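The proteasome is the protease that degrades ubiquitin-tagged proteins in the cytosol and nucleus. Its 20S core is a stack of PSMA (alpha) and PSMB (beta) rings, and its 19S cap, made of PSMC ATPases and PSMD subunits, recognizes, unfolds and feeds in substrates. Interferons are known to induce an immunoproteasome, in which alternative beta subunits such as PSMB10 replace constitutive ones and the PSME1/PSME2 activator (PA28) can take the place of the cap, which alters the peptides made for antigen presentation. H3K27ac, the acetylation of histone H3 at lysine 27, marks active promoters and enhancers.

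The genes described here are the protein-coding genes of GENCODE release 44 with a symbol of PSMA to PSMG and a number, without PSMB8 and PSMB9. Each was given the H3K27ac peak whose center lay within 1 kb of one of its transcription start sites (TSS), and the peak with the highest mean signal where there were more. The annotation holds 48 such symbols, of which 46 had a peak, and these 46 peaks are distinct and come from a table of 20087 peaks. Of the 46, 3 are linked to interferon (PSME1, PSME2 and PSMB10) and 43 are called constitutive here. The 43 include 2 genes that match by symbol and are not subunits, PSMC3IP, a meiotic recombination factor, and PSME3IP1, a binding partner of PSME3. Without a peak were PSMA8, the alpha subunit of the testis, with its nearest peak at 43466 bp, and PSMB11, the beta subunit of the thymus, with its nearest peak at 7526 bp.

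All libraries came from HCT116 CMV-osTIR1 RAD21-mAC, a human colorectal carcinoma line that carries the auxin receptor osTIR1 under a CMV promoter and a degron-tagged cohesin subunit RAD21, so that controls share both alterations. Every culture was kept in 0.1% DMSO for 6 h. Of the H3K27ac libraries, 2 came from cells given IFN-β at 1000 unit/ml for 1 h and 2 from unstimulated cells, and 1 input library served as background for the peak calls. Sample titles place the IFN-β libraries at 60 min and the unstimulated H3K27ac libraries at 0 min, so that IFN-β and the added culture time cannot be told apart. Of 7 epithelial marker genes 5 had a promoter peak, among them EPCAM and KRT8 but neither VIL1 nor KRT20, while 0 of 4 leukocyte and 0 of 3 endothelial markers had one, and COL1A1 did among 3 fibroblast markers.

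The values are the authors' means for each group, as log2 of normalized reads per peak. A difference is the IFN-β value minus the unstimulated value, so that -1 is a fold of 2. Since the table holds no value per library, it is unknown how far 2 libraries of one group lay apart, the differences carry no SD, and no test between the groups was possible. Over all 20087 peaks the median difference was -0.69, and over all 11731 protein-coding genes with a peak chosen in the same way it was -0.76. This offset of the whole table bears on every difference below, and the members are therefore placed against these medians.

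The 3 interferon-linked genes are the ones for which an interferon-sensitive response element (ISRE) is of most interest, as it is the site bound by the IRF and STAT factors that IFN-β activates. Their RefSeq promoters (GRCh38.p14, from 250 bases before the start to 50 after it, on the strand of the gene) are shown with the ISRE core, GAAANNGAAA on either strand, in capitals.
PSME1, chr14:24135944-24136243, plus strand: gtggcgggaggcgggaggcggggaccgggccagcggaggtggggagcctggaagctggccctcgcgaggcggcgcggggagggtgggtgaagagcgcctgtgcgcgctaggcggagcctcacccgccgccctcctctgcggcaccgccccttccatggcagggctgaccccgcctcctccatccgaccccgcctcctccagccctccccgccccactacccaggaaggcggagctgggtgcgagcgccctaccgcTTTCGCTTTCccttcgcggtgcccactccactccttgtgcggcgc
PSME2, chr14:24146561-24146860, minus strand: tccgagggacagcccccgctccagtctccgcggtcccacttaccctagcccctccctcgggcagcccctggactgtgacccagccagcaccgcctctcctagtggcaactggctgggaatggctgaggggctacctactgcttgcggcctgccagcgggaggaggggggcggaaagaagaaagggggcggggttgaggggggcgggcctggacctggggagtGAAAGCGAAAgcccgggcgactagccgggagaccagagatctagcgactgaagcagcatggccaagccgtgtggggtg
PSMB10, chr16:67936801-67937100, minus strand: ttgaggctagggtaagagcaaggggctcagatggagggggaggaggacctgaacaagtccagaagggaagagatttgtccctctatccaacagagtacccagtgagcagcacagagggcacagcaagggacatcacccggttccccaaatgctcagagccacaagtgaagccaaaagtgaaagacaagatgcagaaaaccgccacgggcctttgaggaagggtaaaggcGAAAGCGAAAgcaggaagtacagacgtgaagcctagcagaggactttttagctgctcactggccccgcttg
Each of these promoters held the core once, and each time with the same letters, GAAAGCGAAA, which in PSME1 lie on the strand opposite to the gene. Of 40 proteasome genes with a RefSeq promoter, 6 held the core and 4 held these exact letters, which were chosen after the sequences were seen, the fourth being PSMG4. Over all 27305 genes with a RefSeq promoter, 1195 (4.38%) held the core and 34 (0.125%) held GAAAGCGAAA. The other members with a core in the promoter were PSMA4 and PSMB4.

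The peaks chosen for the interferon-linked genes had moderate H3K27ac before stimulation. Those of PSME1 and PSME2 contain the RefSeq promoter shown above. That of PSMB10 ends at 67936691 and does not reach its RefSeq promoter (67936801 to 67937100). The authors' mean for unstimulated cells was 5.64 at PSME1, 5.87 at PSME2 and 6.10 at PSMB10 (log2 level), against a median of 6.01 over the 43 constitutive genes. PSME1 lay above 11 constitutive genes, PSME2 above 15 and PSMB10 above 25, so that these peaks were within the range of the housekeeping subunits and none stood at its edge.

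The differences of the 3 genes were spread over most of the range of the proteasome genes, with PSMB10 the lowest and only PSMA3 and PSMC6 above PSME2. PSME1 and PSME2 encode both chains of the PA28 activator, and PSMB10 the beta subunit that replaces PSMB7. The PSME2 peak (chromosome 14, 24146459 to 24147459) had an authors' mean of 58.5 normalized reads in unstimulated cells and 41.9 with IFN-β, a difference of -0.48. The PSME1 peak (chromosome 14, 24135835 to 24136835) had 49.9 and 30.3 normalized reads, a difference of -0.72. The PSMB10 peak (chromosome 16, 67935691 to 67936691), which does not reach the RefSeq promoter of the gene, had 68.6 and 28.8 normalized reads, a difference of -1.25. PSME2 was thus higher than 41 of the 43 constitutive genes, PSME1 was higher than 32, and PSMB10 was lower than all 43, although PSMD10 at -1.23 was next to it and the levels are given to 0.01 only.

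The median difference was -0.72 for the 3 interferon-linked genes and -0.79 for the constitutive genes, 0.07 apart, while the 3 genes themselves differed by more than this in both directions. A median of 3 is the value of a single gene, here PSME1. The mean differences, -0.82 (interferon-linked) and -0.80 (constitutive), lay in the opposite order. Centred within deciles of GC content, the interferon-linked median turned to 0.08 and the constitutive one was -0.12, which widened the gap to 0.20. Minus the constitutive median, PSME2 was at 0.31, PSME1 at 0.07 and PSMB10 at -0.46. Minus the median of all peaks, PSME2 was at 0.21, PSME1 at -0.03 and PSMB10 at -0.56, so that the sign of PSME2 depends on the offset. Among all 11731 genes with a peak, PSME2 stood at percentile 83.8 of the differences, PSME1 at percentile 55.8 and PSMB10 at percentile 4.00.

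**Figure D1:**
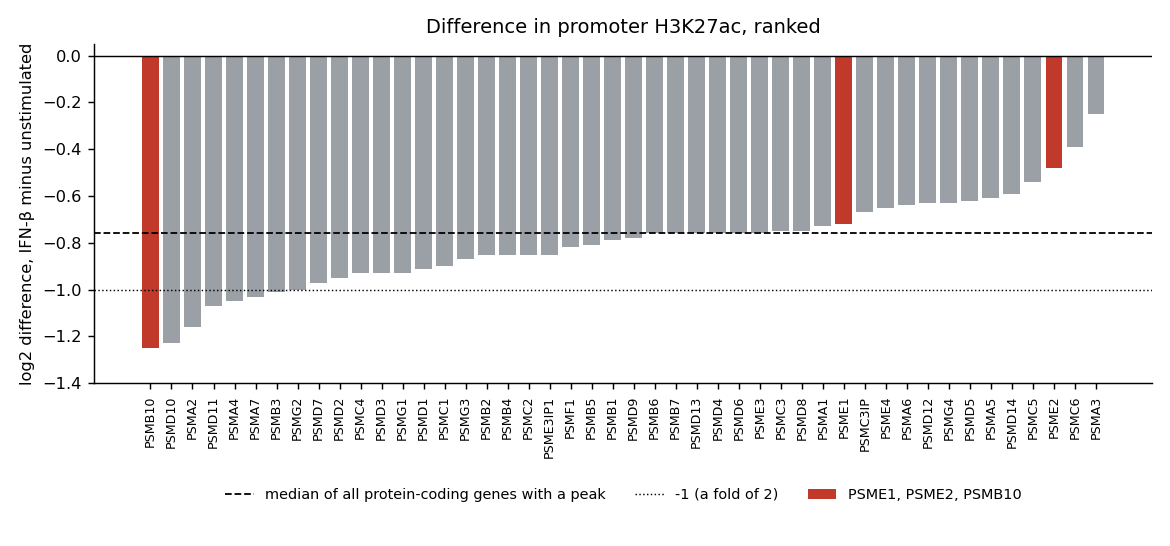
Log2 difference in H3K27ac at the chosen peak of each of the 46 genes (IFN-β minus unstimulated, from the authors' group means, with no error available), ordered from lowest to highest. A dashed line marks the median of all protein-coding genes with a peak (-0.76), and a dotted line marks -1. The PSMB10 peak does not reach the RefSeq promoter of its gene. The interferon-linked genes, in red, lie at -1.25 (PSMB10), -0.72 (PSME1) and -0.48 (PSME2), and every bar is below 0 (2.09% of all genes with a peak are above 0), while after centring on the median of all peaks 12 of the 46 (26.1%) are above 0, against 38.8% of all genes.

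The PSMB10 peak did not reach the RefSeq promoter of its gene, and so did not cover the ISRE core there. The core lies at 67936862 to 67936871 on chromosome 16, 171 bp beyond the end of the peak, whose center fell in a noncoding exon, 206 bp upstream of the nearest annotated start (67935985), which lies inside the gene. An unnamed protein-coding gene also starts within 1 kb of this peak center. At PSME1 the core (chromosome 14, 24136199 to 24136208) and at PSME2 the core (24146629 to 24146638) are both inside the peak, and both peak centers are in annotated UTR sequence. The start used here for PSME2 (24147235) lies outside its RefSeq promoter, and that core is centered 601.5 bp downstream of it. The PSME2 peak holds another core, GAAAAAGAAA (24147225 to 24147234), centered 5.5 bp downstream of the start used. The PSMG4 core (chromosome 6, 3258914 to 3258923) is also inside its peak, where the authors' means were 5.68 without and 5.05 with IFN-β, a difference of -0.63. PSMG4 is a chaperone of 20S assembly and is not among the 3 genes linked to interferon. Across all genes, 23 had both the letters GAAAGCGAAA in a RefSeq promoter and an H3K27ac peak, with a median difference of -0.56 (quartiles -0.70 and -0.31) and 3 of them above 0. These 23 include the 4 proteasome genes. For the core with any 2 bases in its middle, GAAANNGAAA, the median was -0.67 over 360 genes with a peak, 36 of them (10%) above 0. The median was -0.76 over 9036 genes with a peak and no core. Of all 11731 protein-coding genes with a peak, with or without a RefSeq promoter, 2.09% were above 0, and the share among the 9036 alone is not given here. These medians and shares were not matched for GC content and were not tested. Over all peaks the median difference was -0.48 in the lowest decile of GC content and -0.82 in the highest.

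PSME1 and PSME2 are neighbors of IRF9, which encodes the DNA-binding subunit of the ISGF3 complex formed after IFN-β. The IRF9 peak, 14.2 kb from the PSME2 start used here, went against the offset, with an authors' mean of 5.11 without and 6.40 with IFN-β, a difference of 1.29. Between PSME1 and PSME2, the peak of EMC9 had a difference of -0.40. On the outer sides, DCAF11 had -0.70, IPO4 -0.16 and TM9SF1 -0.69. The 4 peaks from EMC9 to IPO4, PSME2 and IRF9 included, were all above the median of all peaks, while PSME1, DCAF11 and TM9SF1 were at or just below it. The PSME2 peak also lies at the start of RNF31, a ubiquitin ligase subunit transcribed from the other strand, and the reads of both cannot be told apart. Around PSMB10, the next peaks on either side, of PSKH1 and SLC12A4, had differences of -0.78 and -0.76.

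**Figure D2:**
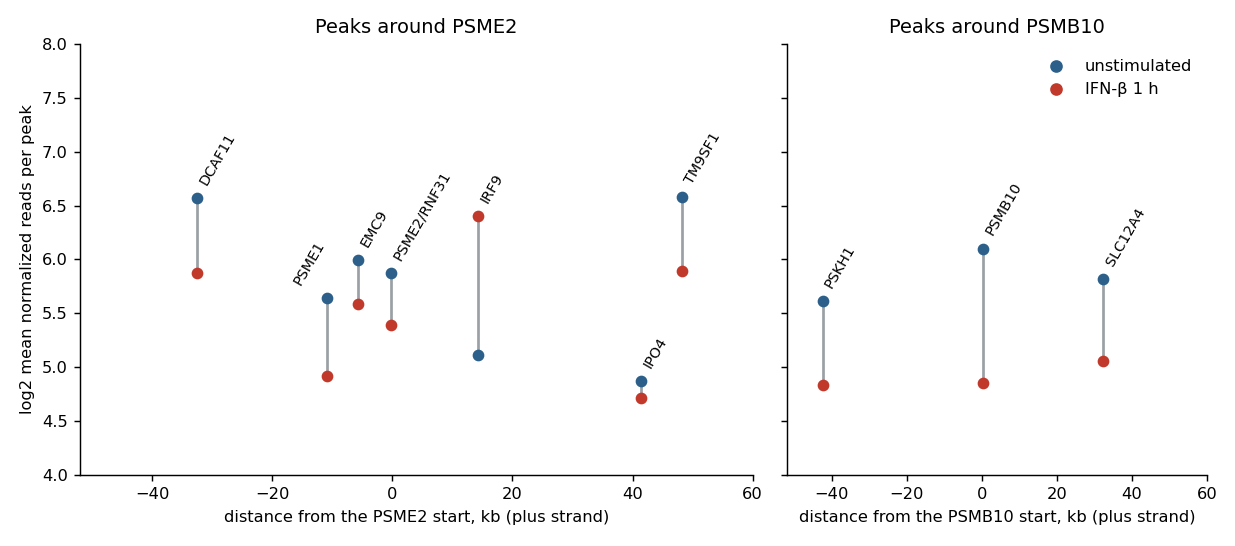
Authors' mean H3K27ac level (log2 normalized reads per peak) of each peak within 50 kb of the PSME2 start (left) and of the PSMB10 start (right), against distance in kb, in unstimulated cells (blue) and after IFN-β (red), named by the member gene or else by the nearest protein-coding gene, with RNF31 added at PSME2, whose peak center is nearer to the RNF31 start. Of the 10 peaks only that of IRF9 has its IFN-β value above its unstimulated value, while relative to the median difference of all peaks those of PSME2, EMC9 and IPO4 are also higher.

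Before stimulation most proteasome genes had more H3K27ac than the median gene. The constitutive genes had a median unstimulated level of 6.01 (log2 level per peak), with quartiles of 5.66 and 6.41, compared with 5.66 for all genes, with quartiles of 4.91 and 6.27. As 42 of the 46 peaks were 1000 bp wide, levels per peak and per kb mostly coincide. Per kb the constitutive median was 6.00 against 5.57 for all genes, and 34 of the 46 members lay above the median of all genes.

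The highest level by far was that of PSMA7, a subunit of the 20S alpha ring, at 7.63 (log2 level per kb, percentile 99.5 of all genes), which corresponds to 198 normalized reads. Next came the assembly chaperone PSMG2 with 7.0, the ATPase PSMC5 with 6.98, and 2 subunits of the 19S cap, PSMD7 with 6.80 and PSMD1 with 6.74. The lowest were the lid subunit PSMD6 with 4.63, the assembly chaperone PSMD10 with 4.74 and the large base subunit PSMD2 with 4.78, whose peak is 1728 bp wide and reached 5.57 per peak. Next on the per kb scale were PSMF1, known as an inhibitor of the 20S core in vitro, with 4.93, the 19S subunit PSMD8 with 5.07 and the alpha ring subunit PSMA6 with 5.14, the last 2 with peaks wider than 1000 bp. PSMB6 and PSMA5, both of the 20S core, followed with 5.27 and 5.29. Within the 20S core, whose constitutive subunits enter the particle in equal number, promoter levels ranged from 5.14 (PSMA6) to 7.63 (PSMA7) on the log2 scale per kb.

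**Figure D3:**
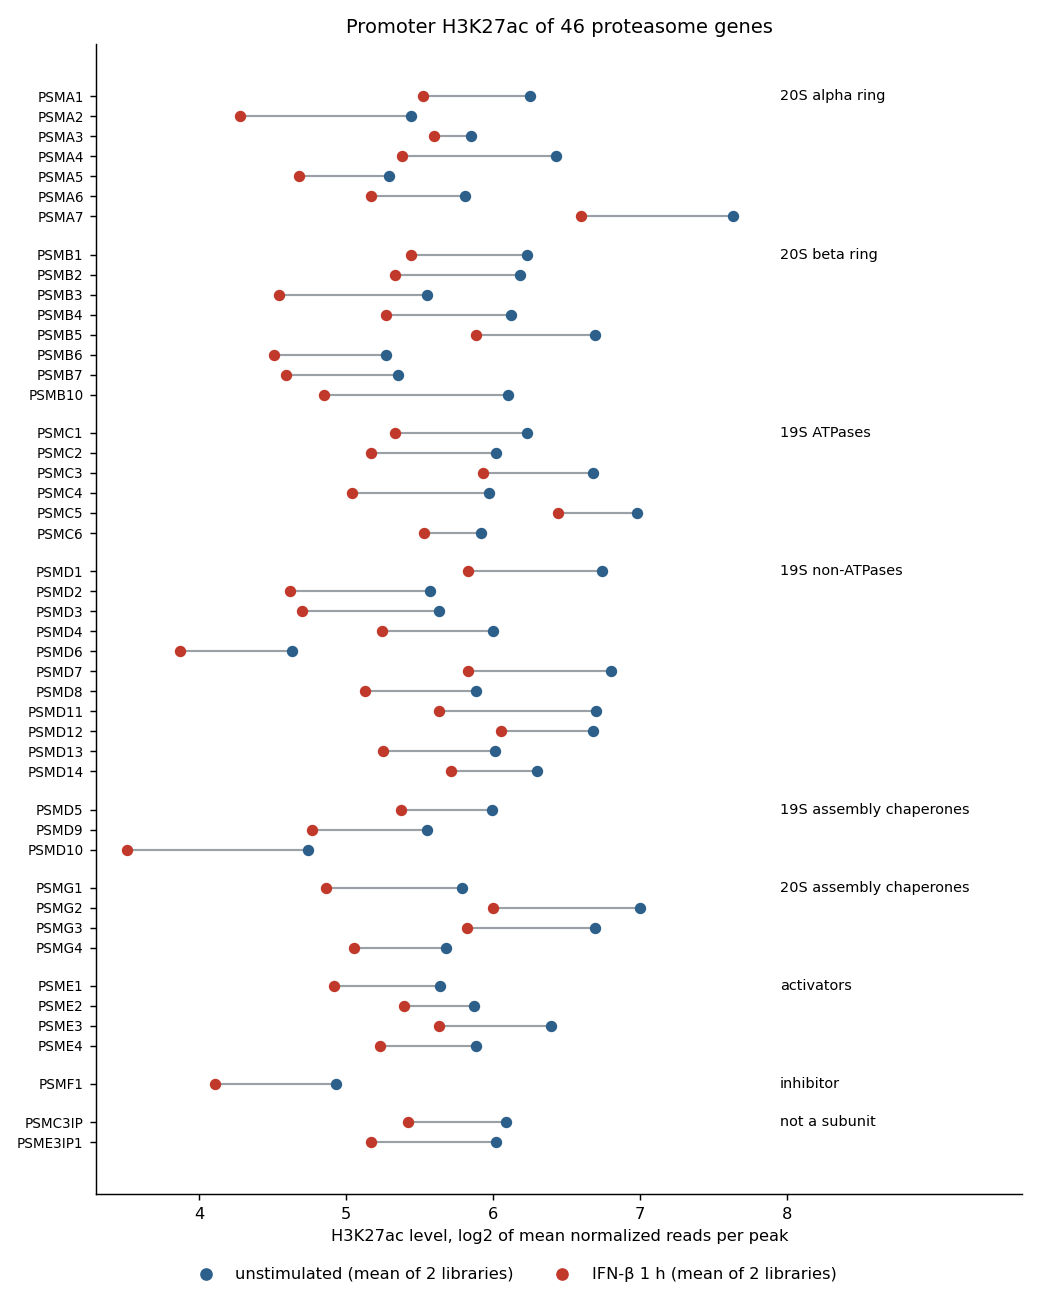
Authors' mean H3K27ac level (log2 normalized reads per peak) of the 46 genes without (blue) and with IFN-β (red), grouped by the part of the proteasome they encode, with a gray line joining both values of a gene. The IFN-β value is the lower one in every gene (median difference over all peaks -0.69), the lines are shortest for PSMA3 and PSMC6 and longest for PSMB10 and PSMD10, and PSMA7 has the highest level.

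The differences of the members lay close to those of the bulk of the genes. Of the 46 genes 0 had a difference above 0, against 2.09% of all genes with a peak and 5.93% of all peaks. Differences below -1 were found for 7 of the 46 (15.2%), against 17.6% of all genes and 17.4% of all peaks, so that the share of members was near the background. Centred on the median of all peaks, 12 of the 46 (26.1%) were above 0, against 38.8% of all genes and 49.1% of all peaks on the same scale, a difference in share that was not tested. The constitutive genes had a median of -0.79 and an SD across genes of 0.19, compared with an SD of 0.34 across all genes. These SDs were not matched for level, as unstimulated levels reached down to -0.17 among all genes and to 4.63 among the constitutive genes. Of the 46 members, 32 lay between percentiles 25 and 75 of all genes. Summed over the 46 peaks, the authors' mean was 3266 normalized reads per library without and 1873 with IFN-β, or 57.4%, and the same share was 58.8% over all genes.

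**Figure D4:**
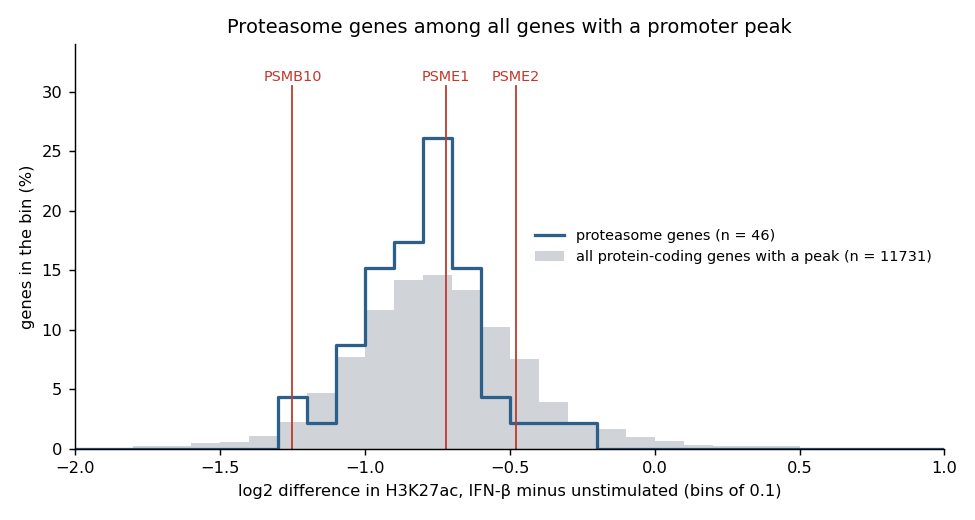
Share of genes (%) in bins of 0.1 of the log2 difference (IFN-β minus unstimulated) for the 46 proteasome genes (blue line) and all 11731 protein-coding genes with a peak (gray bars), drawn from -2 to 1, which leaves out 45 genes. Both sets center near their medians of -0.79 and -0.76, and red lines mark PSMB10 far to the left, PSME1 near the middle and PSME2 to the right.

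Among the constitutive genes the difference was least negative at PSMA3, a subunit of the 20S alpha ring. Its authors' mean was 57.7 normalized reads without and 48.5 with IFN-β, a difference of -0.25 that stood at percentile 94.3 of all genes. The ATPase PSMC6 followed with 60.5 and 46.2 normalized reads, a difference of -0.39. PSMC5 had -0.54, PSMD14, the deubiquitinase of the 19S lid, had -0.59, and PSMA5 had -0.61. These 5 genes were above the median of all peaks, and PSMA3 and PSMC6 by 0.44 and 0.30.
At the other end was PSMD10 (gankyrin), a chaperone of 19S assembly, with 26.7 normalized reads without and 11.4 with IFN-β and a difference of -1.23, which rests on the second lowest unstimulated level. PSMA2 had 43.4 and 19.4 normalized reads, a difference of -1.16. The PSMD10 peak is shared with ATG4A and the PSMA2 peak with MRPL32, so that their reads cannot be assigned to the member alone. PSMD11, a lid subunit, had -1.07, PSMA4 had -1.05, and PSMA7, the gene with the highest level, had -1.03. The alpha ring therefore held both the least negative and several of the most negative members.

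The parts of the particle had median differences between -0.90 and -0.68. The medians were -0.73 for the 7 alpha ring genes, -0.81 for the 7 constitutive beta ring genes, -0.80 for the 6 ATPases and -0.76 for the 11 other 19S subunits. They were -0.78 for the 3 chaperones of 19S assembly, -0.90 for the 4 chaperones of 20S assembly and -0.68 for the 4 activators, and PSMF1 had -0.82. With PSMB10 left out, the beta ring was the most even of the parts with at least 4 genes. Its constitutive members ranged from -1.01 (PSMB3) to -0.76 (PSMB6 and PSMB7), with an SD of 0.09. With PSMB10 the SD of the beta ring was 0.17, wider than the 0.12 of the activators, which include PSME1 and PSME2. PSMB5, PSMB6 and PSMB7, which carry the catalytic sites, had differences of -0.81, -0.76 and -0.76 and unstimulated levels of 6.69, 5.27 and 5.35 (log2). PSMB10 minus PSMB7, the subunit it replaces, was -0.49 in difference and 0.75 in unstimulated level (log2). The alpha ring was spread most widely of these parts, from -1.16 (PSMA2) to -0.25 (PSMA3). Of the activators not linked to interferon, PSME3, which forms the nuclear activator, had -0.76 and PSME4 (PA200) had -0.65.

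The 3 least negative members, PSMA3, PSMC6 and PSME2, all lie on chromosome 14, which carries 7 members. In order of position the 7 had differences of -0.81 (PSMB5), -0.72 (PSME1), -0.48 (PSME2), -0.64 (PSMA6), -0.39 (PSMC6), -0.25 (PSMA3) and -0.90 (PSMC1). Their median was -0.64, against -0.82 for the 39 members elsewhere and -0.74 for the 384 other genes with a peak on chromosome 14. Since this was noticed in the values themselves, it is given as a description.

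A total of 5 genes had 2 peaks. The second peaks of PSMC2 (-0.84 against -0.85) and PSMG3 (-0.87 in both) had nearly the same difference as the chosen ones. PSMG2 had -0.83 at its weaker peak and -1.0 at the chosen one. The weaker peak of PSMA1, shared with PDE3B, had -1.20 against -0.73, and that of PSME3, where both peaks are shared with BECN1, had -0.20 against -0.76, so that the choice of the peak mattered for these 2 genes.

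Some members shared their peak with another gene. The peak of 11 of the 46 genes was also within 1 kb of a start of another named protein-coding gene, such as CEP76 at PSMG2, SS18L1 at PSMA7, SIRT3 at PSMD13 and FTSJ3 at PSMC5. The same share was not computed over all 11731 genes, whose chosen peaks number 10064 when counted once each. The median difference of the 11 was -0.85, against -0.78 for the 35 genes without such a neighbor. These 35 include PSMB10, PSMA1 and PSMD9, whose peaks are shared with unnamed protein-coding genes only. The peak center lay in a UTR of the member gene for 14 genes, in an intron for 14, in coding sequence for 8, in a noncoding exon for 4 and outside the gene for 6. The median distance from the peak center to the nearest start was 131.5 bp, and the largest was 436 bp (PSMG1), well inside the limit of 1 kb.

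Sequence around the peaks was next compared with that of the 10064 distinct peaks chosen for all genes, using 500 bp on either side of the center and both strands. Of the 46 member peaks, 10 (21.7%) held the ISRE core, against 8.34% of all. Apart from PSME1 and PSME2 these were PSMA2, PSMA3, PSMA4, PSMB1, PSMB4, PSMC6, PSMG2 and PSMG4. For the constitutive genes at both ends of the differences, the core in capitals is shown with 10 bases on each side.
PSMA3, chr14:58245235-58245244: gccacttaggGAAACCGAAAgtggaaactc
PSMC6, chr14:52707532-52707541: gccttgaggtGAAAATGAAAaagaagtaga
PSMA4, chr15:78540165-78540174: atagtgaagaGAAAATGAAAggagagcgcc
PSMA2, chr7:42931607-42931616: gtgcatcgaaGAAACCGAAAgcgggaggtt
PSMA3 and PSMA2 thus carry identical cores and lie near opposite ends of the members, at -0.25 and -1.16, although the PSMA2 peak is shared with MRPL32. The median difference was -0.76 for members with the core and -0.80 for those without, and over all chosen peaks it was -0.69 with and -0.77 without. These shares and medians were not matched for GC content, whose median was 58.8% in the members and 64.4% in all genes.

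The antioxidant response element, bound by NFE2L1, the factor known to raise proteasome genes when the proteasome is inhibited, was searched as TGACNNNGC. It was found in 27 of 46 member peaks (58.7%), against 35.9% of all, with medians of -0.76 in members with it and -0.81 in members without it. The ETS core CCGGAAG was found in 45.7% of member peaks and 31.6% of all, and the CCAAT box (CCAAT) in 67.4% and 57.4%. The GC box (GGGCGG, 91.3% and 93.0%), the E-box (CACGTG, 19.6% and 21.4%), the STAT site GAS (TTCNNNGAA, 21.7% and 17.5%) and the kappa B core (GGGANNTTCC, 4.35% and 4.69%) had like shares in both. No test was made of these shares, which were not matched for GC content, and a match of letters is a description and not a site.

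GC content of the member peaks had a median of 58.8%, lower than the 64.4% of all genes, and ranged from 49.4% (PSMA3) to 79.5% (PSMA7). When all peaks were divided into deciles of GC content, the median difference was -0.48 in the lowest decile and -0.82 in the highest. Minus the median of their own decile, the members had a median of -0.10, and 14 of the 46 (30.4%) were above 0, against 47.5% of all genes and 49.6% of all peaks on that scale. PSME2 was then at 0.26, PSME1 at 0.08 and PSMB10 at -0.48. Across the 46 members, which share the same 4 libraries and are not replicates, Pearson's r between GC content and difference was -0.217 and Spearman's rho was -0.173, compared with -0.163 and -0.161 across all 11731 genes.

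**Figure D5:**
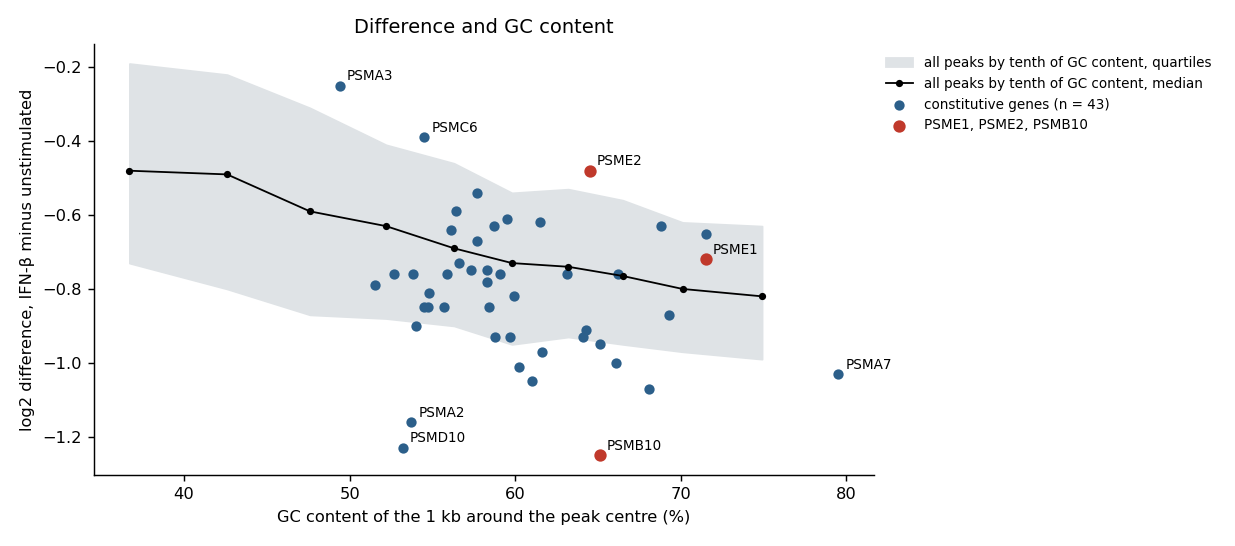
Log2 difference (IFN-β minus unstimulated) against GC content (%) of the 1 kb around the peak center, for the 43 constitutive genes (blue) and the interferon-linked genes (red), with the median (line) and quartiles (shade) of all peaks by decile of GC content. PSME2, PSMA3 and PSMC6 lie above the shade, and PSMB10, PSMD10 and PSMA2 are the farthest below it.

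The wider ubiquitin pathway had a median difference near that of the proteasome genes, but reached lower values. The 27 further genes listed for it (assembly and accessory factors, ubiquitin genes, shuttles and regulators) each had a peak, with a median difference of -0.75, 0 above 0 and 4 below -1 (14.8%), compared with 17.6% of all genes. NFE2L1 had -0.75, NFE2L2 had -0.79 and POMP, the maturation factor of the 20S core, had -0.73. The extremes were PAAF1 with -0.48 and NGLY1, the glycanase that processes NFE2L1, with -1.59. UBE3C had -1.46, and both NGLY1 and UBE3C lay below PSMB10, the lowest proteasome gene at -1.25. Of the immunoproteasome subunits left out of the set, PSMB9 had a peak within 1 kb, which is also that of TAP1, with an authors' mean of 5.34 without and 5.59 with IFN-β and a difference of 0.25, above those of PSME1, PSME2 and PSMB10.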

How the data were processed

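The authors performed the ChIP of H3K27ac on 500000 cells per experiment, fixed in 1% formaldehyde for 10 min. As described by the authors, FastP (0.19.3 in the submitters' processing notes) removed adapters and bowtie2 placed the reads on GRCh38. The authors then ran MACS2 on every library relative to the input, and DiffBind, with DESeq2 inside, to merge these peaks and count the reads. The deposited values are mean normalized reads of a peak on a log2 scale, given once for all 4 libraries together and once for each group. Another scaling factor for a library would shift all its peaks alike. The 3 columns of the authors' own comparison (fold, p-value, FDR) were not used. The read number of each library, and so the depth behind a peak, is unknown from the table. Labels do not state whether libraries of a group came from separate cultures.

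All 39 sequence names matched the GRCh38 reference, and 1 of them had a peak that ran past its end. Peaks were assigned to transcript starts of GENCODE release 44, levels were subtracted, and sequences were searched with pandas 2.3.3, numpy 2.4.6 and scipy 1.17.1 under Python 3.11.15, and matplotlib 3.10.9 drew the figures. Assignment and motif search were tested on simulated data. RefSeq promoters matched 40 of the 46 genes, without PSMA7, PSMB1, PSMB6, PSMB7, PSMD4 and PSMG3. Members, lists and motifs were chosen with earlier results of these data known. Named are the 3 interferon-linked genes, the 5 constitutive genes at each end of difference and of unstimulated level, and genes with no peak, with 2 peaks or sharing a peak with another member (0 did), and others named were chosen after their values were seen. Alternatives changed the distance, the TSS, the peak, the signal minimum, shared peaks, a pseudocount, centring and peak width.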

Additional observations from a re-analysis of the deposited data

How the results depend on the processing

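The levels, differences and counts were recomputed under 11 alternatives, 1 of them (leaving out PSMC3IP and PSME3IP1) added after the data were examined, which gave 78 values. A median was taken as moved when it differed by over 0.1 (log2) and a count when it differed by over 1.5 times, and 63 values did not move. Distances of 500 bp or 2 kb, the gene's 5′ end as TSS, the nearest peak, a minimum signal of 5, peak width, and leaving out those 2 genes moved none. Adding 16 normalized reads to both groups gave median differences of -0.62 (constitutive), -0.51 (interferon-linked) and -0.61 (ubiquitin pathway), with 0 genes below -1. Centring on the median of all peaks gave -0.10 (constitutive) and -0.03 (interferon-linked), with 12 genes above 0 and 0 below -1. Centring within deciles of GC content gave -0.12 (constitutive) and turned the interferon-linked median to 0.08, which put it 0.20 above the constitutive one, with 14 genes above 0 and 0 below -1. Without genes that share their peak with a named or unnamed gene, which leaves PSME1 alone of the 3, the interferon-linked level was 5.64 and 3 genes were below -1. No library could be left out, as only group means are given. No paired analysis was possible because the columns hold group means and carry no replicate numbers.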
